A study of Mus musculus with 6 samples.

Results

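Presentation of peptides on MHC class I was followed in WT mouse embryonic fibroblasts (MEFs) through 10 genes: H2-K1, H2-D1, B2m, Tap1, Tap2, Tapbp, Nlrc5, Psmb8, Psmb9 and Psmb10. They were chosen by name, as the rows of the raw count table that carry one of these symbols, and gave 10 of its 51499 loci. The 6 libraries were 3 independent cultures transfected with scrambled control (Scr) siRNA and 3 transfected with Yme1l siRNA, each collected 72 h after transfection, with no other treatment. YME1L is an ATP-dependent protease of the mitochondrial inner membrane. The labels describe the cells as 3T3-immortalized, whereas the study's methods name the SV40 large T antigen. The methods also describe the WT MEFs as clonal cells that carry loxP sites in Yme1l, so both groups share that genotype and all 6 cultures stand for 1 line. The embryonic age and mouse strain of the line were not given in the sources used here, and the siRNA sequences were not used here.

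Nearly every nucleated cell shows short peptides from its own proteins on MHC class I molecules, where CD8+ T cells inspect them. Proteasomes cut the peptides, the transporter TAP carries them into the endoplasmic reticulum, and tapasin holds TAP against an empty complex of a heavy chain and β2-microglobulin until a peptide binds. Interferons are known to raise this pathway in fibroblasts and to exchange the catalytic subunits of the proteasome for the inducible ones of the immunoproteasome. NLRC5, itself induced by interferon, is a coactivator that acts on class I promoters through a conserved module that contains a CRE-like element and an inverted CCAAT box.

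The promoters of the heavy chains, of B2m and of the Tap1 and Psmb9 pair, which share 1 promoter region, are shown. Those of Tapbp, Psmb8 and Psmb10 are not, although the Tapbp locus had more reads than H2-K1 in every culture. RefSeq promoter windows (GRCm38.p6, 250 bases before to 50 after a start) were matched by symbol for 8 of the 10 genes, and Tap2 and Nlrc5 are named only. Each is given 5′ to 3′ in the direction of transcription, the last in that of Tap1, with capitals marking matches to the motifs named after them. H2-K1 lies at chr17:34000334-34000583 on the minus strand, H2-D1 at chr17:35262844-35263093 on the plus strand, B2m at chr2:122147437-122147686 on the plus strand, and the 225 bases between the starts of Psmb9 and Tap1 at chr17:34187331-34187555. Starts are those of RefSeq and lie at or inside the spans that GENCODE gives these genes, well inside for H2-D1 and Psmb9. By GENCODE the span of Psmb9 reaches past the start of Tap1.
H2-K1: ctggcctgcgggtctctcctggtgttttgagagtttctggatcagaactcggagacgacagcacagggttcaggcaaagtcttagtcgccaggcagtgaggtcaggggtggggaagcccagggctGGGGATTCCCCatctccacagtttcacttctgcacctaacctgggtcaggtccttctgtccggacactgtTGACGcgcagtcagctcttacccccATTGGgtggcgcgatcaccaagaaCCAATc
H2-D1: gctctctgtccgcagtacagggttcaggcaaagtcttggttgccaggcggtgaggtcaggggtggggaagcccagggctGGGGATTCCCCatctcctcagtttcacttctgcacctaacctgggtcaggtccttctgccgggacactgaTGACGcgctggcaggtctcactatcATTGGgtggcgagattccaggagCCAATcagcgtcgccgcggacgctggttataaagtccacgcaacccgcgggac
B2m: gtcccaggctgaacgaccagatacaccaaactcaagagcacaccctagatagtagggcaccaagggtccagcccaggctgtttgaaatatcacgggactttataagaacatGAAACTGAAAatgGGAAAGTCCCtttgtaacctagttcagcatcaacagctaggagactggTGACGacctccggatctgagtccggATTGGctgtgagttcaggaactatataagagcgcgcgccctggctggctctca
Psmb9-Tap1: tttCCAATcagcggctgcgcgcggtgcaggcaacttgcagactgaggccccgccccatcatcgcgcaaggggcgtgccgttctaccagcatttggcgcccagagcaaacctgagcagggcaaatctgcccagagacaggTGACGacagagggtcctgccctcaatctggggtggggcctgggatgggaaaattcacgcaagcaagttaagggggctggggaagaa

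Matches were sought on both strands. The H2-K1, H2-D1 and B2m windows held the NF-κB consensus, which 8.46% of all 32851 mouse promoter windows held. In H2-K1 and H2-D1 it matched at 2 positions that overlap by all but 1 base, seen as 1 run of capitals. The CRE core TGACG was found in H2-K1, H2-D1, B2m, Tap1 and Psmb9 (20.8% of all windows), and CCAAT, written ATTGG where it is inverted, in those 5 and Tapbp (37.4%). The heavy chain promoters kept 1 layout, with 70 bases from the first base of the NF-κB match to that of the CRE core and 25 from there to the first CCAAT, and the next CCAAT 24 bases on in H2-K1 and 23 in H2-D1. A strict interferon-stimulated response element, GAAA then 2 bases of any kind then GAAA, was matched in B2m (3.44% of all windows), and a gamma-activated sequence, TTCNNNGAA, in Psmb8 (8.30%). The strict pattern allows no other letters, so the stretch tttcacttct in the H2-K1 and H2-D1 windows did not count. A window without a match may still hold a looser form of the element. A match describes letters in a window and is not a site of binding measured here.

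Poly(A) RNA libraries held between 37260605 and 45205207 counted reads, and 14499 loci had enough reads to be tested with edgeR's quasi-likelihood test, adjusted over all of them by the Benjamini-Hochberg method. Levels are given as CPM, reads scaled to library size. The targeted gene, Yme1l1, stood at 170, 171 and 171 CPM in the Scr cultures and at 31.6, 23.4 and 45 CPM in Yme1l siRNA cultures 1, 2 and 3, which is 18.5, 13.7 and 26.4% of the Scr mean. Ifnb1, which encodes interferon-β, had at most 3 reads in a Scr culture and 37, 60 and 11 reads in Yme1l siRNA cultures 1, 2 and 3. The groups differed broadly: 58.0% of all loci tested passed an adjusted p of 0.05, 28.4% higher and 29.6% lower after Yme1l siRNA. In such bulk samples fewer cells of a kind and less RNA per cell cannot be told apart.

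Most of the class I pathway was higher after Yme1l siRNA. Of the 10 genes, 9 were higher at an adjusted p under 0.05, against 28.4% of all loci tested, and 7 were at least 2-fold higher, against 8.18%. The log2 fold changes ran from 0.32 for Tapbp, which did not pass, to 3.00 for Psmb8, with a median of 1.3 beside 0.01 over all loci. In 7 genes every Yme1l siRNA culture lay above every Scr culture, which held for 31.9% of all loci. The cultures of a group were not alike. Averaged over the 10 genes, log2 levels over the Scr mean were 0.28, 0.11 and -0.39 in the Scr cultures and 1.62, 1.89 and 0.62 in the Yme1l siRNA cultures.

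The order of the cultures was the same in all 10 genes. Yme1l siRNA 2 had the highest and Yme1l siRNA 3 the lowest level of its group, a gap of 1.78- to 3.32-fold between them, and Scr siRNA 3 had the lowest level among the Scr cultures. Over all loci tested, 12.8% had this order in both groups, and among loci called higher 14.9% had it. Yme1l siRNA 3 was also the culture with the most Yme1l1 RNA left and the fewest Ifnb1 reads of its group, and the part of either in the lower class I levels was not tested.

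The classical heavy chains bind the peptide and face the T cell receptor. H2-K1 (chr17:33996017-34000347, minus strand, GRCm38) stood at 76.7, 63.8 and 42.0 CPM in the Scr cultures and at 429, 511 and 175 CPM in the Yme1l siRNA cultures. The groups did not overlap, and the lowest Yme1l siRNA culture was still above the highest Scr culture. Mean levels were 60.9 ± 17.5 and 372 ± 175 CPM (SD, 3 cultures per group), and the log2 fold change was 2.61 ± 0.38 (SE; edgeR adjusted p = 0.000527). H2-D1 (chr17:35262730-35267499, plus strand) was the more abundant heavy chain in every culture, at 362, 335 and 265 CPM against 819, 947 and 430 CPM. The groups were again separate, and the log2 fold change was 1.19 ± 0.26 (edgeR adjusted p = 0.00429).

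β2-microglobulin is the invariant light chain that every class I heavy chain needs to reach the surface. B2m (chr2:122147686-122153083, plus strand) had the highest level of the 10 genes, 687, 646 and 490 CPM in the Scr cultures and 1242, 1405 and 758 CPM after Yme1l siRNA. The groups were separate, although Yme1l siRNA 3 was close to the highest Scr culture. Its log2 fold change was 0.90 ± 0.22 (edgeR adjusted p = 0.00749), from a mean of 608 ± 104 to 1135 ± 337 CPM.

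TAP is a dimer of TAP1 and TAP2. Tap1 (chr17:34187553-34197225, plus strand) stood at 25.6, 24.7 and 15.4 CPM in the Scr cultures and at 63.1, 81.6 and 24.6 CPM after Yme1l siRNA. Yme1l siRNA 3 fell inside the Scr range, while the other cultures of its group were well above it. The log2 fold change of 1.37 ± 0.38 passed (edgeR adjusted p = 0.0148), but no longer did without Scr siRNA 3 (1.16, adjusted p = 0.0558). Tap2 (chr17:34203527-34216321, plus strand) was at 40.5, 36.4 and 31.8 CPM against 62.9, 73.3 and 34.7 CPM, again with Yme1l siRNA 3 inside the Scr range. Its log2 fold change of 0.65 ± 0.24 passed narrowly with edgeR (adjusted p = 0.0413) and missed the threshold with DESeq2 (0.66, adjusted p = 0.0718), with limma-voom (0.59, adjusted p = 0.0737), and when any culture but Yme1l siRNA 3 was left out (adjusted p = 0.0576 to 0.136).

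Tapasin, the product of Tapbp, bridges TAP to the empty class I complex. Tapbp (chr17:33915899-33929292, plus strand) was the exception among the 10 genes. Its locus, which the table counts together with Zbtb22, had 547, 496 and 408 CPM in the Scr cultures and 667, 736 and 415 CPM in the Yme1l siRNA cultures. The groups overlapped, with Yme1l siRNA 3 close to the lowest Scr culture, and the log2 fold change of 0.32 ± 0.20 did not pass (edgeR adjusted p = 0.194). Without Yme1l siRNA 3 it was 0.53 (adjusted p = 0.00490), and with the replicate number as a block 0.29 (adjusted p = 0.0461); without Yme1l siRNA 2 it was 0.17 and without Scr siRNA 3 it was 0.21.

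NLRC5, the class I coactivator, was at 13.6, 11.3 and 11.1 CPM in the Scr cultures and at 40.7, 46.9 and 18.9 CPM after Yme1l siRNA. Nlrc5 (chr8:94434356-94527272, plus strand) varied little among the Scr cultures, and each Yme1l siRNA culture lay above them. The log2 fold change was 1.56 ± 0.29 (edgeR adjusted p = 0.00191).

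The inducible catalytic subunits of the immunoproteasome all rose, and 2 of them, Psmb8 and Psmb9, were the scarcest of the 10 RNAs in the Scr cultures. Psmb8 (chr17:34197721-34201454, plus strand), which encodes LMP7, had 152, 114 and 49 reads in the Scr cultures, or 3.51, 3.16 and 1.16 CPM, and 1014, 1260 and 444 reads after Yme1l siRNA, or 22.9, 29.0 and 10.5 CPM. Even the lowest Yme1l siRNA culture was far above the highest Scr culture. The log2 fold change was 3.00 ± 0.45 (edgeR adjusted p = 0.000636). Psmb9 (chr17:34181987-34187764, minus strand), which encodes LMP2, had 131, 91 and 61 reads against 323, 424 and 128 reads, or 3.03, 2.52 and 1.45 CPM against 7.28, 9.75 and 3.04 CPM. Its groups were separate by a margin of under 1% between Scr siRNA 1 and Yme1l siRNA 3, and its log2 fold change was 1.52 ± 0.42 (edgeR adjusted p = 0.0133). Psmb10 (chr8:105935735-105938444, minus strand), which encodes the remaining inducible catalytic subunit, stood at 15.6, 14.2 and 11.5 CPM against 33.6, 42.3 and 21.2 CPM. The groups did not overlap and the log2 fold change was 1.23 ± 0.23 (edgeR adjusted p = 0.00193).

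Exons of Tap1, Tap2, Tapbp, Nlrc5, Psmb8 and Psmb9 overlap genes on the opposite strand in the annotation, Tap1 and Psmb9 each other, and the use of strand in counting was not given in the sources used here, so reads of such partners cannot be told apart. H2-K1, H2-D1, B2m and Psmb10 have no such overlap. For H2-D1, 4.64% of the 100-base windows of its longest transcript also occur in another gene's transcript, first of all H2-Q1, Gm7030 and H2-T23. For H2-K1 and B2m the share was 0%.

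In assembled immunoproteasomes LMP7 takes the place of the Psmb5 product, LMP2 that of the Psmb6 product and the Psmb10 product that of Psmb7. The constitutive subunits differed by less than 2-fold. Psmb7 stood at a mean of 223 CPM in Scr and 218 CPM in Yme1l siRNA cultures (log2 fold change -0.04, not called), Psmb6 fell by 0.42 on the log2 scale (edgeR adjusted p = 0.00176), and Psmb5 rose by 0.21 (edgeR adjusted p = 0.0310), a call that was lost when Scr siRNA 1, Scr siRNA 3, Yme1l siRNA 1 or Yme1l siRNA 3 was left out. The log2 ratio of Psmb8 to Psmb5 went from -5.76 ± 0.90 to -2.94 ± 0.80 (SD, n = 3 each), a difference of 2.81. For Psmb9 to Psmb6 it went from -6.23 ± 0.57 to -4.38 ± 0.99, and for Psmb10 to Psmb7 from -4.03 ± 0.25 to -2.80 ± 0.61. In all 3 pairs every Yme1l siRNA culture lay above every Scr culture. The two-sided exact permutation p was 0.1 for each pair, the smallest that 3 cultures against 3 can give. Per kb of exon, Psmb8 RNA was 0.552% of Psmb5 RNA in Scr and 3.79% in Yme1l siRNA cultures, Psmb9 was 0.717% and 2.83% of Psmb6, and Psmb10 was 12.4% and 30.4% of Psmb7. The constitutive RNAs therefore remained the more abundant of each pair in both groups. Exon lengths were merged over all isoforms, 3.381 kb for Psmb8 and 3.421 kb for Psmb7, whose longest coding transcripts have 1628 and 1160 bases. The percentages depend on the lengths chosen and are approximate. Of the 100-base windows of the longest Psmb5 transcript, 24.9% also occur in another gene's transcript, against 0% for Psmb6 and Psmb7. The count of Psmb5, and with it the Psmb8 to Psmb5 ratio, is the less certain for that.

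**Figure D1:**
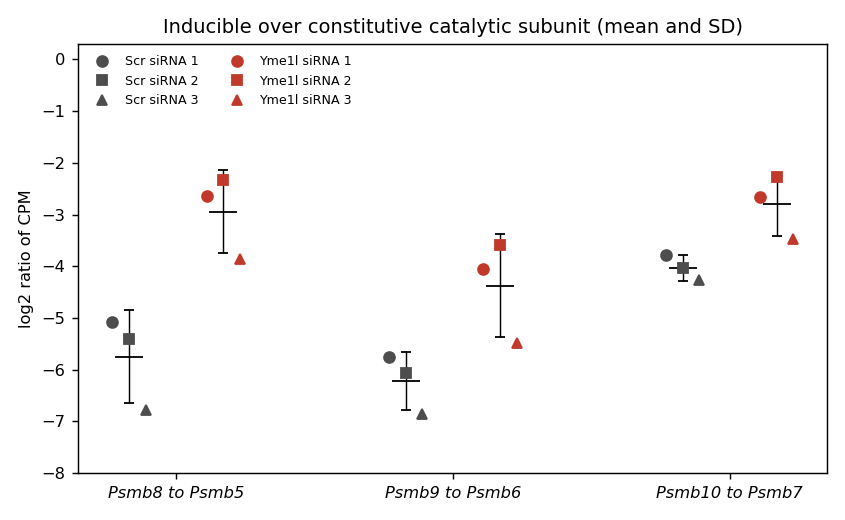
log2 ratio of the CPM of each inducible catalytic subunit to that of the constitutive subunit it replaces, per culture, with group means and SD (n = 3 each; grey Scr siRNA, red Yme1l siRNA). The ratios rise from between -6.78 and -5.08 to between -3.85 and -2.34 for Psmb8 to Psmb5, and all stay below 0.

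Compared between genes as CPM per kb of exon, the Scr cultures had B2m (707) far above H2-D1 (124), then Tapbp (78.6), H2-K1 (20.7), Tap2 (9.58), Psmb10 (8.08), Tap1 (4.0), Nlrc5 (1.41), Psmb8 (0.772) and Psmb9 (0.637). Among neighbours in that order the cultures overlapped for Tap2 and Psmb10 and for Psmb8 and Psmb9. After Yme1l siRNA H2-K1 (126 CPM per kb) moved above Tapbp (98.5), Psmb10 (19.0) above Tap2 (15.1), and Psmb8 (6.15) above Nlrc5 (4.18). In that group all neighbours overlapped except B2m with H2-D1 and Tapbp with Psmb10. The order by the deposited FPKM exchanged H2-D1 with Tapbp and Tap2 with Psmb10 in the Scr group, and H2-K1 with Tapbp and Tap2 with Tap1 in the Yme1l siRNA group.

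Heavy chains outside the classical pair were also higher. Of 14 tested loci among 28 listed nonclassical and related heavy-chain genes (24 loci in the table), 10 were higher and 2 lower, against 28.4% and 29.6% of all loci, and 9 were at least 2-fold higher, with a median log2 fold change of 1.71. H2-K2, annotated as a transcribed pseudogene, was among the loci called higher. H2-Q4 was at 39.5, 32.3 and 24.2 CPM in the Scr cultures and 232, 312 and 116 CPM after Yme1l siRNA, a log2 fold change of 2.78 ± 0.34 (edgeR adjusted p = 0.000211). H2-Q6 went from 23, 9 and 18 reads to 556, 608 and 146 reads (log2 fold change 4.60 ± 0.57, edgeR adjusted p = 0.000216). H2-T24 gave 79, 98 and 29 reads after Yme1l siRNA against 3, 1 and 0 in Scr, and H2-Q5 had 21, 8 and 6 in Scr. Both had enough reads to be tested only through the Yme1l siRNA cultures, where they were high. With a mean of at least 50 counts required of each locus, 8 loci were higher and 2 lower. H2-T22 rose by 1.47, H2-Q5 by 4.23 and H2-Q7 by 3.52 on the log2 scale. H2-T23, which encodes Qa-1, had a log2 fold change of 0.75 that did not pass (edgeR adjusted p = 0.0838) but did without Yme1l siRNA 3 (1.06, adjusted p = 0.00160), and was 0.47 without Yme1l siRNA 2 (adjusted p = 0.267). H2-M3, which presents formylated peptides, passed narrowly at 0.79 (edgeR adjusted p = 0.0439), and lost its call when any culture but Yme1l siRNA 3 was left out. The 2 called lower were Mr1 and Cd1d1. Mr1, which presents vitamin B metabolites, went from 46.8, 45.7 and 41.1 CPM to 21.5, 20.4 and 19.5 CPM, a log2 fold change of -1.12 ± 0.08 (edgeR adjusted p = 1.7e-05), and Cd1d1, which presents lipids, had one of -0.53. H2 genes resemble each other, and 100-base windows shared with other transcripts made up 2.66% of H2-Q4, 10.8% of H2-Q6, 16.4% of H2-Q7, 14.2% of H2-T22 and 7.28% of H2-T23, so the split of reads among them is uncertain.

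**Figure D2:**
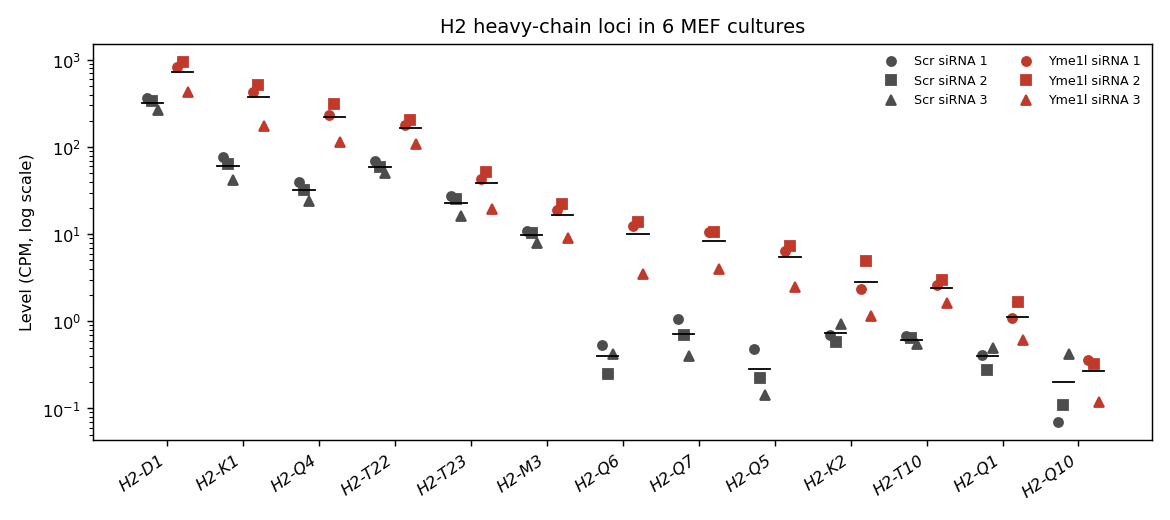
Level of the tested H2 heavy-chain loci in CPM on a log axis, in order of the Yme1l siRNA mean and with symbols as in the plot of the 10 genes; H2-T24, with a Scr culture at 0 reads, is left out. H2-Q4 and H2-Q6 are separate between groups, while H2-T23, H2-M3 and H2-Q10 overlap.

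The 23 heavy-chain loci named H2, the pseudogene H2-K2 among them, were also counted together. Their sum stood at 509 ± 92.1 CPM in Scr and 1575 ± 631 CPM in Yme1l siRNA cultures (SD). The log2 fold change was 1.63 ± 0.29 (edgeR adjusted p = 0.00146), and the sum does not depend on how reads were split among them. Their makeup differed between the groups. H2-K1 gave 13.0, 12.1 and 10.3% of the heavy-chain reads in the Scr cultures and 24.4, 24.4 and 20.0% in the Yme1l siRNA cultures. H2-D1 gave 63.2 ± 1.70% and 47.0 ± 2.06%, and H2-Q4 6.24 ± 0.411% and 13.8 ± 0.949% (SD, n = 3 each). For each of the 3 shares the groups were separate, and the two-sided exact permutation p was 0.1, the smallest possible.

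Genes that trim peptides and load them went both ways. Of 16 tested, 8 were higher and 3 lower, beside 28.4% and 29.6% of all loci, with a median log2 fold change of 0.28. Erap1, the aminopeptidase that trims peptides inside the endoplasmic reticulum, was the 1 gene of the list at least 2-fold higher, at 39.8, 42.8 and 38.3 CPM against 127, 132 and 78.6 CPM (log2 fold change 1.49 ± 0.18, edgeR adjusted p = 0.000192). The chaperones Canx (0.48), Pdia3 (0.45) and Hspa5 (0.54) rose by less than 2-fold, while Calr (-0.14) and the tapasin relative Tapbpl (0.37) did not pass; Tapbpl did without Yme1l siRNA 3 (0.56, edgeR adjusted p = 0.00235) and was 0.19 without Yme1l siRNA 2 (adjusted p = 0.335). The cytosolic aminopeptidase Npepps fell by 0.76 on the log2 scale (edgeR adjusted p = 0.000613), and Lnpep fell by 0.73 and Ganab by 0.40.

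Of 11 proteasome activators and assembly factors tested, 7 were higher and 1 lower, beside 28.4% and 29.6% of all loci, with a median log2 fold change of 0.32. The activator PA28 opens the proteasome and is known to be induced by interferon-γ. Its subunit genes Psme1, from 103 to 162 CPM (log2 fold change 0.65, edgeR adjusted p = 0.000902), and Psme2, from 68.0 to 113 CPM (0.73, edgeR adjusted p = 0.00254), both rose, although Psme2 shares 44.5% of its 100-base windows with Psme2b, whose locus, joined with 9930111J21Rik1, was also higher (0.88, edgeR adjusted p = 0.000781). Pomp, the chaperone that helps immunoproteasomes assemble, rose by 0.33 on the log2 scale. Psme4, which encodes the activator PA200, fell from 206 to 111 CPM (log2 fold change -0.90, edgeR adjusted p = 0.000357).

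The factors known to act on class I promoters were called about as often as loci in general. Of 16 tested loci, 7 were higher and 3 lower, beside 28.4% and 29.6% of all loci and 58.0% in either direction, with a median log2 fold change of 0.22. Stat2 (1.64) and Irf9 (1.19), which act in interferon signalling, were more than 2-fold higher, Irf9 being counted in 1 locus with Rnf31. Irf1, which drives Tap1 and Psmb9 in other settings, rose from 65.7, 62.5 and 60.7 CPM to 90.4, 111 and 72.4 CPM (log2 fold change 0.54 ± 0.14, edgeR adjusted p = 0.00984). Rfxank, Rfx5 and Rfxap encode the RFX complex, which binds the conserved module of class I and class II promoters. Rfxank fell from 27.1 to 12.1 CPM (log2 fold change -1.17, edgeR adjusted p = 3.73e-05), Rfx5 fell by 0.42 and Rfxap rose by 0.36 on the log2 scale. Creb1, which encodes a factor that binds the CRE core, went from 53.5 to 27.9 CPM (log2 fold change -0.94, edgeR adjusted p = 0.000122). The NF-Y genes Nfya (-0.06), Nfyb (-0.12) and Nfyc (0.08) did not pass, and of the NF-κB genes Nfkb2 (0.59) and Nfkb1 (0.28) rose and Rela (0.13) and Relb (0.41) did not pass.

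Of 6 tested loci for interferons and their receptors, 2 were higher and 2 lower, beside 28.4% and 29.6% of all loci. Ifnb1 was higher (edgeR adjusted p = 0.00233), as was the locus of Ifnar2, which is counted with Il10rb (0.47). With at most 3 reads in a Scr culture, Ifnb1 had enough reads to be tested only through the Yme1l siRNA cultures. Ifngr1, a chain of the interferon-γ receptor, fell from 58.8 to 29.0 CPM (log2 fold change -1.02, edgeR adjusted p = 8.12e-06). Ifnlr1 was called lower at under 13 reads in each culture. It had enough reads to be tested only through the Scr cultures, where it was higher. Ifng had 2 reads in all, both in Scr siRNA 3.

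MHC class II, which presents to CD4+ T cells, is typical of professional antigen-presenting cells, and most of its genes were at or near 0 reads. Only 4 of its 13 listed loci had enough reads to test. Cd74, the invariant chain, rose from 208, 158 and 95 reads to 1149, 2033 and 447 reads (log2 fold change 2.87 ± 0.51, edgeR adjusted p = 0.00151), in the same culture order as the class I genes. H2-Ab1 (8, 12 and 11 reads against 19, 35 and 13), H2-DMa (log2 fold change -0.33) and H2-DMb1 (-0.17) did not pass. Ciita, the class II counterpart of Nlrc5, had between 1 and 6 reads in every culture, too few to test.

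Leukocyte markers were checked because such cells express class I and class II strongly. Among 16, the defining markers Adgre1, Tyrobp and Cd3e had 0 reads in all 6 cultures, Ptprc had 3 reads in Yme1l siRNA 1 and 0 elsewhere, and Itgam and Aif1 had at most 3. Others were present: Cd68 had 1084 to 2528 reads (log2 fold change -0.13, not called) and Cd14 986 to 1335 reads (0.08, not called). Of the 7 tested, 2 were higher and 1 lower, beside 28.4% and 29.6% of all loci. Csf1r was higher by 0.74 on the log2 scale. Flt3 was higher with 5, 1 and 2 reads against 23, 20 and 24 (2.92, edgeR adjusted p = 0.000762). Itgax was lower (-1.74, edgeR adjusted p = 0.0149). The summed level of the list was 195 to 212 CPM in Scr and 277 to 289 CPM in Yme1l siRNA cultures, most of it from Csf1r (means of 123 and 205 CPM). The fibroblast genes Col1a1, Col1a2, Col3a1 and Fn1 were abundant in all cultures and lower after Yme1l siRNA. Of 10 tested fibroblast markers 8 were lower and 1 higher, beside 29.6% and 28.4% of all loci. Among those lower were Pdgfrb (-0.78) and the locus that holds S100a4 (-0.90), and Vim was not called (-0.19). The 1 higher was Fbn1, from 325 to 696 CPM (log2 fold change 1.10, edgeR adjusted p = 0.00198). The summed level of the list was 34986 to 42268 CPM against 19159 to 23980 CPM. Thy1 and Lum, also on that list, had at most 15 reads in a culture. Of the epithelial markers only Krt8 was tested, and it was higher, at 1, 1 and 1 reads against 24, 31 and 23. Of 4 tested endothelial markers 3 were higher, beside 28.4% of all loci. They were Kdr (2.57), Vwf (0.98) and Tek (0.61), and the endothelial list summed to at most 8.5 CPM. Flt3, Krt8 and Kdr had enough reads to be tested only through the Yme1l siRNA cultures. Itgax, with 41, 37 and 13 reads in Scr against 7, 10 and 12, had enough only through the Scr cultures, where it was higher. The part of these differences in the class I levels was not tested.

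Of the 10 genes 7 lie on chromosome 17, and the stretch from Tapbp to H2-D1 (chr17:33915899-35267499, 1351.6 kb) was compared as a whole, a choice made after the values were seen. Of its 54 tested loci outside the class I and class II genes, 11 were higher, 14 lower and 29 not called, beside 28.4% higher and 29.6% lower of all loci, with a median log2 fold change of -0.01. The locus of the complement genes C2 and Cfb, counted with Gm20547 (3.37), the complement gene C4b (1.68) and Gm10501 (1.15) were the 3 of these that were called and at least 2-fold higher. H2-K2, a class I locus beside H2-K1 that is annotated as a transcribed pseudogene, was higher by 1.93, and the 3 tested class II loci of the stretch did not pass. Between Psmb9 and Tap2, all 4 of Psmb9, Tap1, Psmb8 and Tap2 were called higher.

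**Figure D3:**
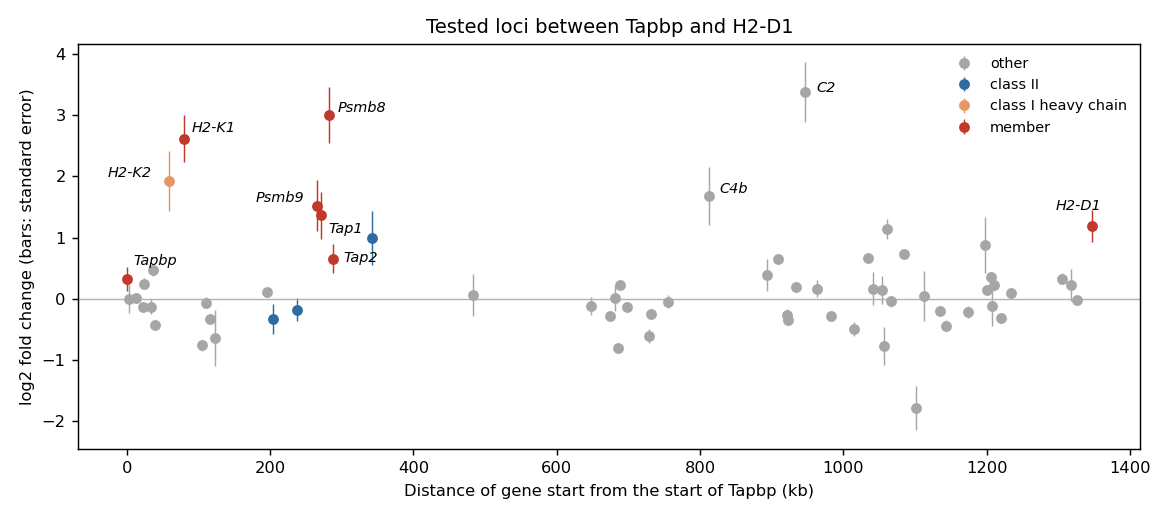
log2 fold change with its standard error for each tested locus between Tapbp and H2-D1, by distance in kb from the start of Tapbp; red marks the 7 class I pathway genes, orange H2-K2, blue class II loci and grey all others. The class I genes other than Tapbp lie above 0.6, while the grey loci scatter around a median of -0.01.

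Among called loci outside the lists whose mean log2 CPM was 1 or more, those whose log2 levels over the 6 libraries ran most like the mean of the 10 genes were Scap, 5730480H06Rik, Erp44, Zbp1 and Shisa5, with Pearson's r between 0.995 and 0.997 over 6 libraries. The r reads the group difference and the shared culture order together, describes these libraries only, and exceeded 0.99 for 30 such loci. The 5 differed in the size of the difference. Zbp1 went from 15 to 65.9 CPM (log2 fold change 2.14) and Shisa5 from 159 to 324 CPM (1.03), while Scap went from 71.4 to 80.8 CPM (0.18, edgeR adjusted p = 0.0479).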

How the data were processed

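RNA-Seq was done in 6 cultures, 3 per group, and groups were taken from the sample titles. Per the labels, 1 µg of total RNA gave stranded poly(A) libraries that were sequenced paired-end. The authors mapped reads to mm10 with HISAT2 2.0.4 and used StringTie 1.3.3 and Cuffdiff 2.2.1, and they deposited raw read counts per gene locus. The program that counted reads was not given in the sources used here. A deposited table of the authors' comparison also holds FPKM per group, used here only for the order of levels, and log2 fold changes, a test score, p-values and q-values, which were not used. All per-sample columns of the count table were mapped (0 left out).

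Counts were tested with edgeR 4.0.16 (R 4.3.3): TMM factors, filterByExpr with a minimum count of 10 and a minimum total count of 15, and the quasi-likelihood test, with p-values adjusted by Benjamini-Hochberg across the 14499 loci kept, of which 398 carry several gene names. SEs of log2 fold changes were derived from the F statistic. Single ratios and shares were compared by exact permutation over cultures. The common biological coefficient of variation was 0.131. On simulated data with 200 of 14499 loci changed 2-fold, the test recovered 145 (72.5%) with 17 false calls among those made (10.5%). That false share is above the adjusted p threshold of 0.05. Far more loci, 58.0%, were called in the data, so these rates need not carry over. DESeq2 1.42.0, limma-voom (limma 3.58.1), other factors, other filters, a replicate block and leaving out each culture were the alternatives. CPM are counts over TMM-scaled totals, per kb of merged GENCODE M21 exons (GRCm38, the build of mm10) where genes are compared. The 10 genes and all lists were chosen with earlier results of these data known. Named genes were the 10, Yme1l1, Ifnb1, in every list the 3 loci lowest in adjusted p, others where a count needed them, and the 5 loci most like the mean of the 10. Some listed genes are counted within their lists but not reported here by name.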

Additional observations from a re-analysis of the deposited data

How the results depend on the processing

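No result changed direction under any alternative run. The count of the 10 genes called higher was 8 with DESeq2 and with limma-voom, 9 with other factors or filters, 6 at an adjusted p of 0.01, and 7 to 10 when 1 culture was left out (7 without Scr siRNA 3, 10 without Yme1l siRNA 3); their median log2 fold change then ran from 1.01 to 1.59. The log2 fold change of the summed heavy chains ran from 1.38 to 1.92, and the differences in log2 ratio from 2.30 to 3.27 for Psmb8 to Psmb5, 1.46 to 2.41 for Psmb9 to Psmb6 and 0.96 to 1.56 for Psmb10 to Psmb7. The constitutive subunits called higher, 1 in the report, were 0 with no filter beyond 1 count and 0 to 1 when 1 culture was left out. For class II, 1 to 2 loci were higher and 0 to 1 lower in those fits (2 higher without Yme1l siRNA 3, 1 lower without Yme1l siRNA 2), and the cause was not tested. Over all loci, 3451 to 4133 were called higher and 3616 to 4312 lower when 1 culture was left out, of 14705 to 14836 tested. Of 14499 loci tested, 2949 were higher at an adjusted p of 0.01, 4083 with DESeq2 and 4079 with limma-voom. Other factors gave 4159 and 4258 higher. Other filters gave 4258 higher of 23825 tested and 3826 of 12105. Replicate numbers are shared by the groups, but neither the labels nor the methods say that they pair cultures, and the deviations of same-numbered cultures correlated at 0.04, 0.12 and 0.19. With the replicate block, all 10 genes were called higher (median 1.22), as were 4227 loci in all with 4460 lower; the block brought calls for Tapbp (0.29, edgeR adjusted p = 0.0461) and H2-T23 (0.67, edgeR adjusted p = 0.00392) and changed no other call among the genes recomputed one by one. Among those single genes, 15 values lost and 6 gained a call under some alternative, all of Tap1, Tap2, Tapbp, Tapbpl, H2-T23 or H2-M3. H2-M3 was not called with DESeq2 (adjusted p = 0.0727) or limma-voom (0.0925), and H2-T23 was called with no filter beyond 1 count (0.0196) and had a log2 fold change of 0.47 without Yme1l siRNA 2. Low counts limit Psmb8 and Psmb9 in the Scr cultures and most class II loci.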
